A study of Mus musculus with 17 samples.

Results

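Chromatin accessibility was compared between the kidneys of diabetic db/db mice given dapagliflozin (Dapa, mice 7 to 12) and those of untreated db/db mice (Case, mice 1 to 6), and these 12 libraries were all of the Dapa and Case libraries among the 17 ATAC-seq libraries of the series. The other 5 libraries came from non-diabetic mice (Ctrl) and are given here as values beside the comparison, without a test. Both diabetic groups were male leptin receptor mutants on the BKS background, and Ctrl mice were C57BL/6 males. Treatment began at 8 weeks of age and lasted 6 weeks, with 1 mg/kg of dapagliflozin a day by gavage for Dapa and saline for Case and Ctrl. Each library was made from 20000 kidney cells of 1 mouse, so the replicates were mice, and the cells were not sorted by type. The diabetes of both groups is that of 1 mutation in 1 strain, and no Ctrl mouse received the drug.

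Dapagliflozin blocks SGLT2, the sodium and glucose cotransporter that the gene Slc5a2 encodes and that takes up most of the filtered glucose in the early proximal tubule. The glucose that passes is partly taken up further down by SGLT1 (Slc5a1), and it leaves the tubule cell on the blood side through GLUT2 (Slc2a2). ATAC-seq cuts DNA where it is not packed by nucleosomes, so that summits of the cutting signal mark active promoters, which open in many cell types, and enhancers in introns and between genes, which often open in 1 cell type only.

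The values were lists of summits, 1 list per mouse, each summit with a score. To treat all mice alike, the 29702 highest-scoring summits of each list were used, since the shortest list held 29702. Summits were widened by 250 bp to each side and merged over the 12 mice, which gave 104155 regions with a median width of 635 bp. A region was present in a mouse when a summit of that mouse lay in it. Its strength was given as a rank percentile, on which 100 is the strongest summit of that mouse's list. Of the 104155 regions, 59037 (56.7%) were present in 1 mouse only and 8166 in all 12. The read depth of the libraries is unknown, and the full lists ran from 29702 summits (Case 4) to 51292 (Case 5).

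Case 3 and Dapa 8 were the most alike of all pairs of mice. Over the 8166 shared regions their ranks were correlated with Spearman's rho of 0.769, while the 66 pairs of mice had mean values of 0.607 within Case, 0.604 within Dapa and 0.607 between the groups. Case 3 had the lowest mean correlation with the other 11 mice, at 0.559, while Dapa 8, at 0.622, lay within the range of the rest (0.589 to 0.635). Both held more promoters of leukocyte genes than any other mouse, at 42.1% of the 19 listed genes in Case 3 and 26.3% in Dapa 8, against 0% to 10.5% in the other 10. In bulk kidney, fewer cells of a type and less signal per cell cannot be told apart.

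The sequences of the regions on which the comparison turned most are shown first. They were read from GRCm38 (mm10), on the plus strand, as the 201 bases around the strongest summit, without bases of annotated untranslated regions. Capitals mark matches to any of 15 transcription factor motifs, on either strand. The first 4 regions were present in all 6 Dapa mice and in no Case mouse.
Gm35549 (chr9:122837805-122837977): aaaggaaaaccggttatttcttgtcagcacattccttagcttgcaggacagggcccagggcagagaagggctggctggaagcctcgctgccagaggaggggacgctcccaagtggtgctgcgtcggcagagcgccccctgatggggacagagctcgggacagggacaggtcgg
Ddo (chr10:40629206-40629406): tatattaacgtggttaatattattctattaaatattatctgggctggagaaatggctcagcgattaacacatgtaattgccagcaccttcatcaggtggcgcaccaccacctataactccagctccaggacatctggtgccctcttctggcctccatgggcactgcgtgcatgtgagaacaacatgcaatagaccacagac
Gimap9 (chr6:48675923-48676123): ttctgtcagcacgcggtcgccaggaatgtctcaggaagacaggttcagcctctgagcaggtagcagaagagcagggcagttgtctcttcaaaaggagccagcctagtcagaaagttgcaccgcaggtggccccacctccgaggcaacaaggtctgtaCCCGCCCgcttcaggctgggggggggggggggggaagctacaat
Tmc3 (chr7:83568139-83568339): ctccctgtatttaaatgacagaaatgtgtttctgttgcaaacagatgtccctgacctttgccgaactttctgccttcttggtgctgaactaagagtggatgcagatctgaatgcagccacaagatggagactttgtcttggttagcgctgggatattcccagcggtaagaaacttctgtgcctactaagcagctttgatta
Of these, the Gimap9 window held an SP/KLF match (GGGCGGG), a motif found in 28.2% of all promoter regions and 8.06% of all regions, and the other 3 windows held none of the 15 motifs. Repeat-masked bases made up 49.3% of the Ddo window and 62.7% of the Gimap9 window, and 0% of the Gm35549 and Tmc3 windows.

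The next region, a promoter, was present in 5 Case mice and in no Dapa mouse.
Adam15 (chr3:89340566-89340766): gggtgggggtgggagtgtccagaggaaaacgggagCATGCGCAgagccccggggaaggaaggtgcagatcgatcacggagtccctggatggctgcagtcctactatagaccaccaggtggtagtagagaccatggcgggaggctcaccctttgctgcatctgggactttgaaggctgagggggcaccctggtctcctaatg
The Adam15 window held an NRF1 match (TGCGCATG), which occurred in 0.643% of all regions and 1.69% of promoter regions.

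The last 4 windows are those of promoters with a marked difference in rank or presence, and of the summit in the first intron of the drug target's gene, near one of its starts.
Trp53inp2 (chr2:155382066-155382201): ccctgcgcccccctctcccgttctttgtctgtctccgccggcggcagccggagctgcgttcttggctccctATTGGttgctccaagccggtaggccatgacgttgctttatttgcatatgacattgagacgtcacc
Ifit3b (chr19:34607681-34607881): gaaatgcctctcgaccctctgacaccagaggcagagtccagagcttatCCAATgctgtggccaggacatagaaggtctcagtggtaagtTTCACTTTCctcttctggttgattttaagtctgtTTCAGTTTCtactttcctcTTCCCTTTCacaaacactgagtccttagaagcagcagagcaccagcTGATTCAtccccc
Proser2 (chr2:6130212-6130340): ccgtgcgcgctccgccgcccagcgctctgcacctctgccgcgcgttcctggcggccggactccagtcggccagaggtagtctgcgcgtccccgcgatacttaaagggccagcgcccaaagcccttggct
Slc5a2 (chr7:128267501-128267701): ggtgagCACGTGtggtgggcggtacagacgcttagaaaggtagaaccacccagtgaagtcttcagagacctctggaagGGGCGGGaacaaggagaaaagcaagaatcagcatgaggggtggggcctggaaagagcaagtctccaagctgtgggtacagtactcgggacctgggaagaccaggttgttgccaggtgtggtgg
In Ifit3b, the capitals nearest the summit are 3 matches to the interferon-stimulated response element (ISRE, GAAANNGAA), which begin 11 bases before, 23 bases after and 42 bases after the summit. The ISRE letters occurred in 3.30% of all promoter regions. The Ifit3b window also held matches to NFY (CCAAT) and AP-1 (TGANTCA), the Trp53inp2 window an NFY match, and the Slc5a2 window an E-box (CACGTG) and an SP/KLF match. The central 51 bases had no second exact copy in the genome for any window shown except Ifit3b, which had 1, at chr19:34583360-34583410, 171 bp from a start of its neighbour Ifit3. A match shows only that the letters are there.

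Presence was compared first, region by region. None of the 7267 regions found in 5 to 7 of the 12 mice passed Fisher's exact test after Benjamini-Hochberg adjustment, which gave every region a p of 1. Before adjustment, at p under 0.05, 68 regions were present more often in Dapa (0.936% of those tested) and 17 less often (0.234%). This balance moved when 1 mouse was left out: the share present more often in Dapa, 80% of the 85, was 59.0% without Case 2 and 60.1% without Case 3, and the 85 became 139 (without Dapa 11) to 270 (without Case 5), where more regions could be tested. With groups of unequal size the test also does not treat both directions alike, and the part of this in the shift was not tested. The smallest p that 6 mice against 6 allow is 0.00216, and 315 regions would have had to reach it together to pass the adjustment, while 4 did. Over all regions tested, the mean presence was 52.3% of Dapa mice and 46.4% of Case mice. Lists were cut to the same length, so summits in regions of 1 mouse only leave fewer for shared regions. Such summits made up 18.6 ± 9.45% of a list in Case and 14.6 ± 4.38% in Dapa (SD, exact permutation test, p = 0.377). In Case 2 to 4, whose full lists were the shortest, they made up 25.0, 32.0 and 22.3%. Their part in the difference in presence was not tested. Of the 85 regions, 28 were promoters, 3 exonic, 31 intronic and 23 intergenic.

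The 4 regions that separated the groups completely were all present in Dapa. An exonic region of Gm35549, a predicted gene annotated as protein-coding (chr9:122837579-122838156), had rank percentiles of 84.0, 27.6, 77.8, 71.9, 46.3 and 59.0 in Dapa 7 to 12. It was absent from all Case lists, the full lists included, and present in 3 of 5 Ctrl mice. The promoter of Ddo (chr10:40629041-40629614, 683 bp from a start), which encodes the peroxisomal oxidase of D-aspartate, had percentiles of 48.7, 68.3, 45.7, 27.8, 10.6 and 61.6 in Dapa 7 to 12. It was present in 1 Ctrl mouse, and 1 Case mouse had it in its full list.

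The promoter of Gimap9 (chr6:48675687-48676721, 75 bp from a start), a GTPase of a family known from lymphocytes, had percentiles of 53.1, 39.7, 41.2, 19.4, 53.7 and 35.7 in Dapa 7 to 12. All 5 Ctrl mice had it too, at 4.24 to 44.1, and 2 Case mice had it in their full lists. Most of its values lay in the weaker part of the lists. The intergenic region near Tmc3, a member of the transmembrane channel-like family (chr7:83567982-83568531, 16670 bp from its start), had percentiles of 45.1, 11.4, 12.8, 86.2, 27.2 and 35.7 in Dapa 7 to 12. No Case mouse had it in its full list and no Ctrl mouse among its 29702 strongest summits. Each of the 4 regions had p = 0.00216 by Fisher's exact test and an adjusted p of 1.

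The next regions were present in 5 Dapa mice and no Case mouse (Fisher's exact test, p = 0.0152, adjusted p = 1). A region 7404 bp from the start of Ctsf, which encodes the lysosomal protease cathepsin F (chr19:4847435-4848016), had percentiles of 53.1, 39.7, 52.4 and 80.1 in Dapa 7 to 10, 77.8 in Dapa 12 and none in Dapa 11. Intronic regions lay in Kif21a, a kinesin motor (chr15:91007286-91007835), present in 4 Ctrl mice, and in Ptgr2, a prostaglandin reductase (chr12:84288424-84288966), present in 1. The intergenic region nearest Dmac1, an assembly factor of mitochondrial complex I (chr4:75234475-75235059), was present in all 5 Ctrl mice, at 61.2 to 94.6, and in 5 Dapa mice at 52.2 to 65.4. Ctrl mice thus had it at ranks that overlapped those of Dapa only between 61.2 and 65.4.

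Regions absent from Dapa were fewer. The intergenic region nearest Slc24a3, a sodium, calcium and potassium exchanger, lay 165504 bp from its start and had percentiles of 48.3, 73.7, 55.1, 58.3 and 13 in Case 1 to 5, with none in Case 6. It was absent from the full lists of all 6 Dapa mice and present in 1 Ctrl mouse, and it is a region of telomere-type repeats. A region 4510 bp from the non-coding gene Gm12020, with Etaa1 as the nearest protein-coding gene (chr11:18331856-18332505), had 93.5, 67.6, 98.6, 93.2 and 63.6 in Case 1, 2, 4, 5 and 6. That put it among the strongest summits of the 3 highest Case lists, while the full list of no Dapa mouse held it.

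Among promoters, Adam15, a membrane-bound metalloprotease (chr3:89340313-89340961), had percentiles of 27.4, 55.4, 66.5, 44.3 and 17.3 in Case 1 to 5, with none in Case 6, in Dapa or in Ctrl. The full lists held it in 5 Case, 0 Dapa and 3 Ctrl mice. The promoter of Srp72, a subunit of the signal recognition particle (chr5:76974379-76975176), had 67.6, 44.2, 38.4, 41.8 and 28.2 in Case 2 to 6 and was present in all 5 Ctrl mice. The promoter of Epb41l1, a protein of the membrane skeleton (chr2:156474825-156475942), was present in 5 Case mice at 12.8 to 38.8 and in all 5 Ctrl mice at 5.52 to 66.0, and it was in the full list of no Dapa mouse. The other 3 regions of this kind were intronic in Actr3b and Gm12216 and intergenic near Gm3183, and the full lists of 2 or 3 Dapa mice held them. Each had p = 0.0152 by Fisher's exact test and an adjusted p of 1. With the full lists, 38 of the 68 regions more often present in Dapa and 7 of the 17 less often present kept an unadjusted p under 0.05.

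**Figure D1:**
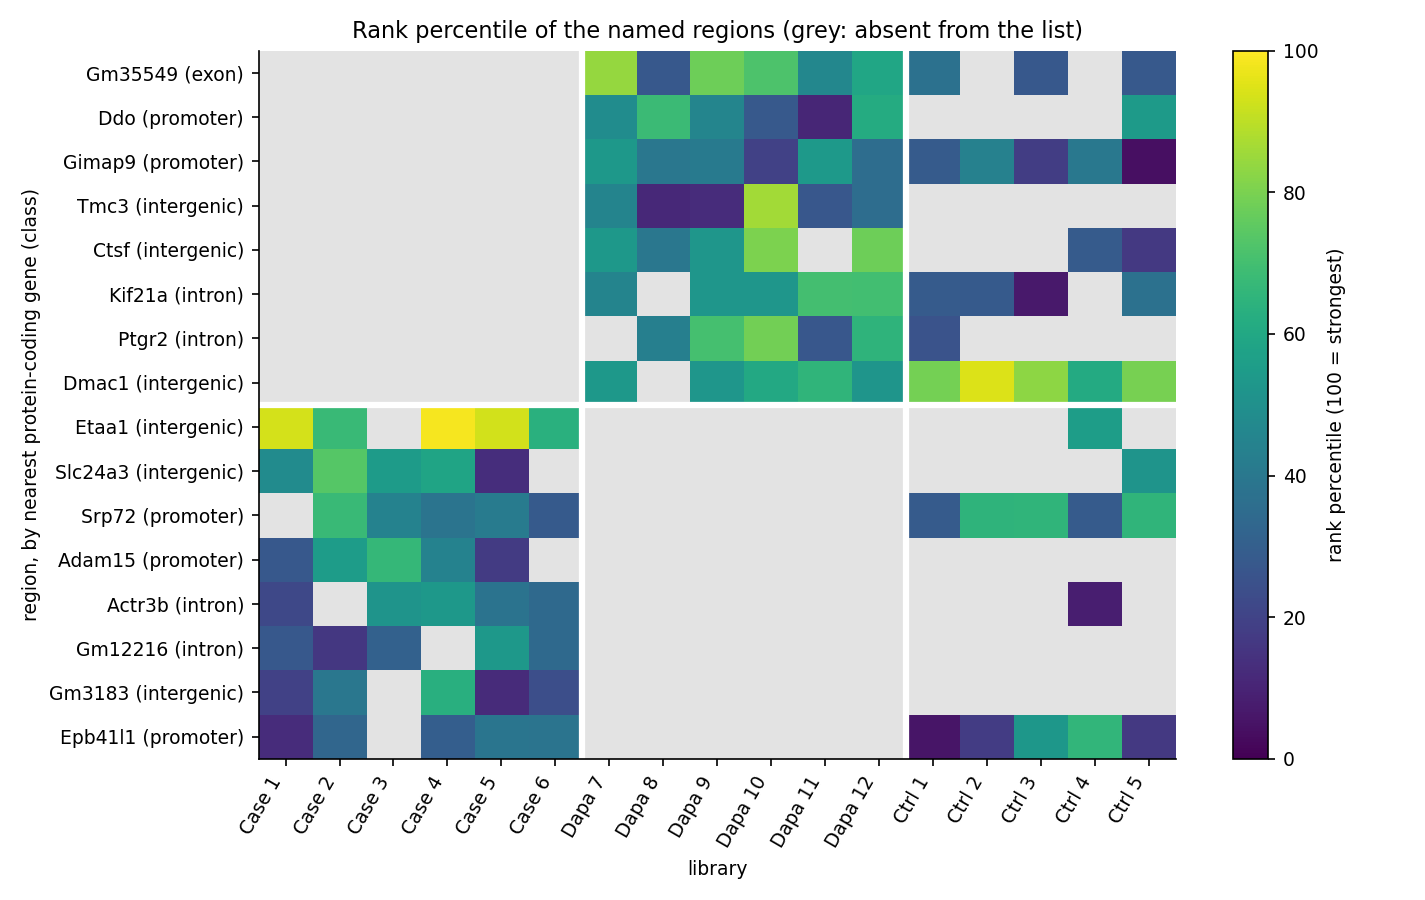
Rank percentile (colour, 100 is the strongest summit of a list) of the 16 named presence regions (rows, by nearest protein-coding gene and class) in the 6 Case, 6 Dapa and 5 Ctrl libraries (columns), with grey where the region was absent. The upper 4 rows are filled in all 6 Dapa libraries and in no Case library, while the Gimap9, Dmac1, Srp72 and Epb41l1 rows are filled in all 5 Ctrl libraries.

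The comparison of ranks asked whether regions open in all 12 mice differed in strength. None of the 8166 regions passed limma with Benjamini-Hochberg adjustment (smallest adjusted p = 0.981). Before adjustment, at p under 0.05, 172 regions ranked higher in Dapa (2.11%) and 175 lower (2.14%). In 13 of the 8166 regions the groups did not overlap. With no difference, a share of 0.00216 of regions would be expected to separate fully (924 relabellings of 6 mice against 6). Full separation of single regions is thus given below as a description. The median difference over all regions was -0.01 percentile points, with 90% of regions between -12.8 and 13.3, and a median standard error of 6.25.

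The promoter of Trp53inp2, an autophagy protein (chr2:155381462-155382468), had the smallest p. Its percentiles were 96.0, 94.9, 89.3, 93.7, 94.3 and 94.8 in Case 1 to 6 and 62.4, 83.4, 66.0, 85.3, 79.7 and 68.2 in Dapa 7 to 12. All Dapa values lay under all Case values, and the Ctrl values of 75.8 to 92.5 overlapped both groups. The difference was -19.7 ± 4.03 points (SE, limma, unadjusted p = 0.00046, adjusted p = 0.981).

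The promoter of Stag1, a subunit of the cohesin ring (chr9:100642185-100643843), had 95.5, 94.2, 97.3, 95.6, 92.6 and 90.3 in Case 1 to 6 and 75.9, 94.2, 75.7, 73.9, 76.4 and 72.4 in Dapa 7 to 12. Dapa 8 ranked with the Case mice and the other 5 Dapa mice ranked under all of them, while Ctrl mice had 75.5 to 87.8. The difference was -16.2 ± 3.41 points (SE, limma, adjusted p = 0.981). Without Dapa 8 it was -19.4 ± 1.69 points and passed the adjustment over 8306 regions (limma, adjusted p = 0.00309). It also passed when Case 3 and Dapa 8 were both left out, a setting chosen after the data were seen (-18.8 ± 1.83 points, limma, adjusted p = 0.0233 over 9870 regions). Both settings remove the only Dapa mouse that ranked with Case. The adjustment did not cover the choice of mice left out, so these passes are no support for a difference.

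Other regions of lower rank in Dapa were an exonic region of the gastric mucin gene Muc6 (-15.5 ± 3.29 points, chr7:141637935-141639832), the promoter of Twistnb, a subunit of RNA polymerase I (-14.1 ± 3.35), and a region 1147 bp from the start of Nrp1, a co-receptor of semaphorins and VEGF (-23.1 ± 5.48). For Muc6, Case mice had 74.4 to 84.4, Dapa mice 56.0 to 72.6 and Ctrl mice 11.8 to 59.4. The Case and Dapa ranges did not overlap for Muc6 or Nrp1, whose ranges were 59.2 to 77.3 in Case and 29.8 to 57.8 in Dapa. None passed the adjustment (limma, adjusted p = 0.981).

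Of the regions of higher rank, the promoter of Dnajc24, which takes part in making diphthamide (chr2:106002825-106003579), had 27.4, 2.81, 55.1, 58.3, 48.0 and 28.2 in Case 1 to 6 and 59.9, 76.1, 67.8, 86.2, 74.2 and 77.8 in Dapa 7 to 12. All Dapa values lay above all Case values, and Ctrl mice had 70.2 to 95.6. The difference was 37.0 ± 8.94 points (SE, limma, adjusted p = 0.981). The intergenic region nearest Pfdn4, a prefoldin subunit (chr2:170469372-170470114), had means of 29.7 ± 18.8 in Case and 67.1 ± 11.7 in Dapa (SD, n = 6 each). Promoters of Thada (19.2 ± 4.70 points), of the co-chaperone Dnajc12 (18.9 ± 4.69) and of Spry1, an inhibitor of growth factor signalling (27.4 ± 7.22), followed, all with an adjusted p of 0.981 (limma). For Dnajc12, Case mice had 54.6 to 84.0, Dapa mice 83.8 to 95.6 and Ctrl mice 57.6 to 81.3.

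**Figure D2:**
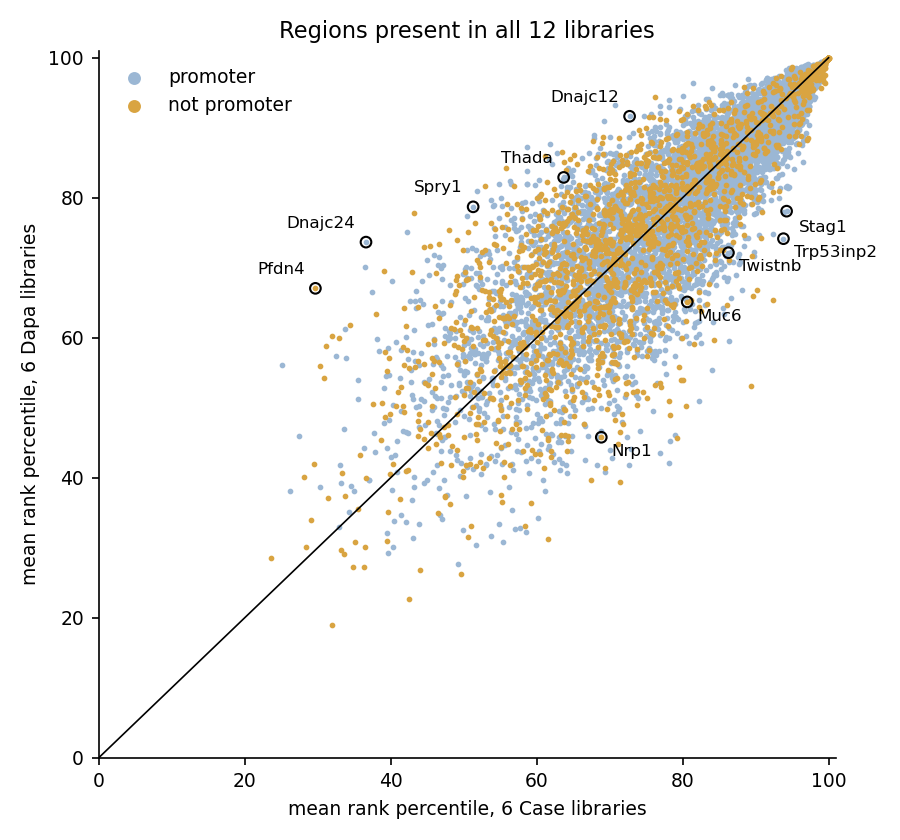
Mean rank percentile of the 8166 regions present in all 12 libraries, in 6 Case libraries (horizontal axis) and 6 Dapa libraries (vertical axis), with promoters in blue, other regions in orange and the line of equal ranks. The named regions, circled, lie at the edge of a cloud whose median difference was -0.01 points.

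With each gene given its strongest summit at most 1 kb from any of its starts, 8261 genes had a promoter summit in all 12 mice and none passed limma with adjustment (smallest adjusted p = 0.993). Before adjustment, at p under 0.05, 157 promoters ranked higher in Dapa (1.9%) and 181 lower (2.19%). Ifit3b, a gene induced by interferon that lies in a cluster of its family on chromosome 19 (chr19:34607970-34613401), was among the 5 lower ones with the smallest p. Its percentiles were 92.2, 72.0, 83.5, 55.6, 89.0 and 76.2 in Case 1 to 6 and 49.0, 59.9, 34.2, 63.8, 20.5 and 25.5 in Dapa 7 to 12. The groups overlapped through Case 4 and the 2 highest Dapa mice, and the difference was -35.9 ± 8.63 points (SE, limma, adjusted p = 0.993).

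Among Ctrl mice, 3 of 5 had the Ifit3b promoter, at 4.81, 23.8 and 4.24, all under the range of Case and, but for 23.8, under that of Dapa, and the full lists of all 5 held it. The rest of the family was looked up after Ifit3b was seen. Ifit3, whose promoter holds the second copy of the 51 bases so that reads there may be shared between both genes, was present in 4 Case mice at 2.81 to 73.5 and in 4 Dapa mice at 22.1 to 48.8, and in no Ctrl mouse (1 with the full lists). Ifit2 was present in 4 Case, 2 Dapa and 2 Ctrl mice, or 4, 3 and 4 with the full lists. Ifit1 was present in 2 Case, 1 Dapa and no Ctrl mice, or 2, 1 and 1 with the full lists. Ifit1 shares its summit with Ifit1bl2. The part of shared reads or of the leukocyte genes in Case 3 and Dapa 8 in the Ifit3b difference was not tested, and both mice ranked in the upper part of their own group.

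Other promoters of lower rank in Dapa were those of Rab3il1, a Rab regulator (-15.7 ± 3.97 points), Als2cl (-26.0 ± 6.59), Nipa2, a magnesium transporter (-18.4 ± 4.66), and Eapp, an E2F-binding protein (-17.4 ± 4.54). For Als2cl, the Dapa values of 21.8 to 48.8 lay under the Case values of 50.9 to 87.6. Promoters of higher rank included Rgl2, an exchange factor for Ral (22.0 ± 5.67 points), the ribosomal protein gene Rpl28 (23.5 ± 6.19) and Cyp39a1, a hydroxylase of oxysterols (11.6 ± 3.19). For Rpl28, Dapa mice had 79.7 to 92.8 and Case mice 40.9 to 78.8, and for Cyp39a1, Dapa mice had 86.2 to 94.6, Case mice 69.0 to 85.3 and Ctrl mice 85.5 to 96.4. The groups did not overlap for these last 2 genes, and none of the 7 passed the adjustment (limma, adjusted p = 0.993).

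The promoter of Proser2 (chr2:6129942-6130517) was absent in Case 1 to 4 and had percentiles of 22.4 and 28.2 in Case 5 and 6, against 74.6, 70.1, 89.6, 83.4, 68.5 and 74.1 in Dapa 7 to 12. All 6 Dapa mice lay far above both Case mice that had it. Since it was present in 8 mice, neither main test covered it, and its values are a description.

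The regions were then split by position. Promoters, within 1 kb of a transcription start, made up 22054 of the regions, introns 36592, exons 4259 and intergenic DNA 41250. Promoters were shared most: 28.5% of them were present in all 12 mice, against 2.43% of intronic and 2.12% of intergenic regions. At an unadjusted p under 0.05, 21 promoters were present more often in Dapa (1.07% of the 1961 tested) and 7 less often (0.357%). The same counts were 26 (0.924%) and 5 (0.178%) of 2815 intronic regions and 18 (0.833%) and 5 (0.231%) of 2160 intergenic ones, each near the 0.936% and 0.234% of all regions. Whether the shares differed between classes was not tested.

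Within a mouse, promoters held 39.8% to 43.6% of the summits in Case (median 41.7%) and 40% to 43.7% in Dapa (median 42.2%), so the groups overlapped almost fully. The means were 41.7 ± 1.26% and 42.0 ± 1.49% (SD, n = 6 each, exact permutation test, 2-sided, p = 0.632). The difference of 0.387 points in favour of Dapa turned to -1.68 points with all summits of the full lists and to -2.57 points with scores of at least 5. Introns held 27.9 ± 1.30% and 28.4 ± 0.782%, and intergenic DNA 27.0 ± 2.62% and 26.2 ± 1.79%. None of the 10 values of this kind passed the adjustment.

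The median rank of intergenic summits had the smallest p of the 10. Tied scores limit this value, since the largest block of equal scores held 7.65% to 12.7% of a list, and in Case 1, 4 and 6 and Dapa 11 the intronic and intergenic medians were the same tied rank. It was 39.0, 33.2, 39.2, 38.4, 38.7 and 38.4 in Case 1 to 6 and 35.0, 36.3, 34.9, 32.3, 37.7 and 35.7 in Dapa 7 to 12. All Dapa mice lay under 5 of the Case mice, and Case 2 was lower than all Dapa mice but Dapa 10. The difference was -2.51 points (exact permutation test, 2-sided, p = 0.0628, adjusted p = 0.509). Without Case 2 it was -3.44 points, with the smallest p those mice allow (exact permutation test, p = 0.00433, adjusted p = 0.0433). Case 2 was the only Case mouse among the Dapa values, and the adjustment did not cover the choice of the mouse left out. With all 12 mice, the difference turned to 0.366 points with the 14851 strongest summits of each list and to 1.87 points with scores of at least 5.

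**Figure D3:**
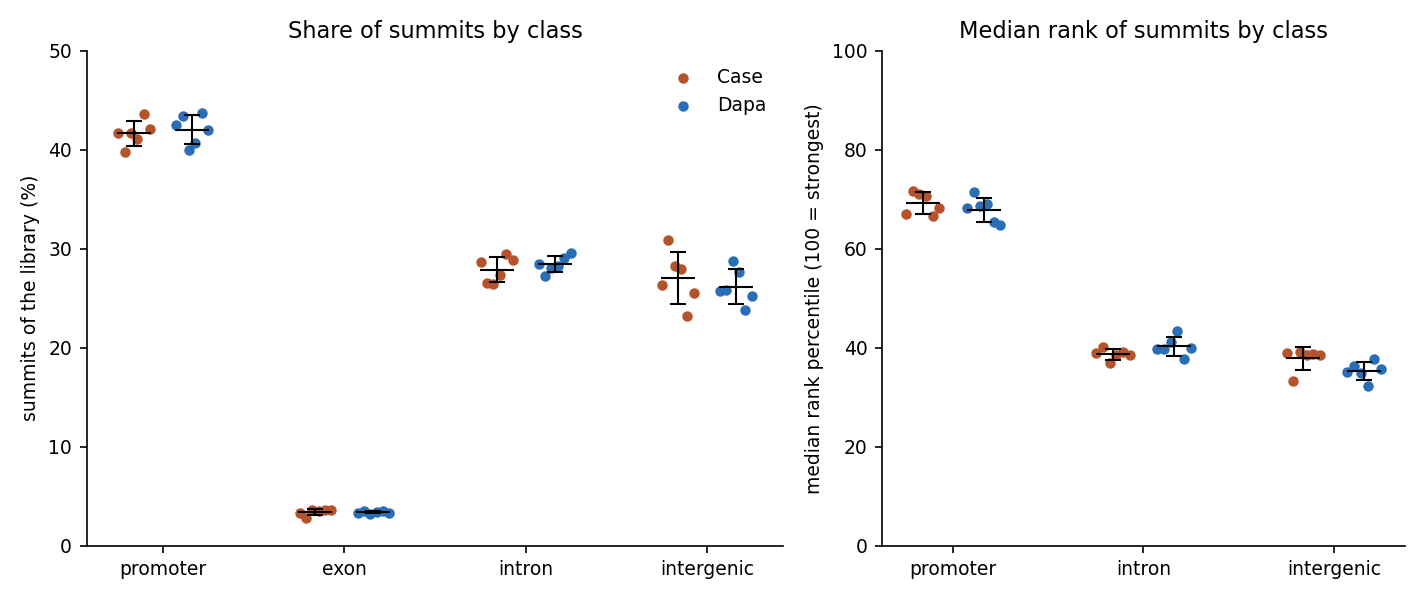
Left, share of summits (%) at promoters, in exons, in introns and between genes for each of 6 Case and 6 Dapa mice, and right, the median rank percentile of promoter, intronic and intergenic summits. Points are mice, and bars are means with SD. The intergenic medians of Dapa lie at 32.3 to 37.7, under those of Case other than Case 2, and all other values overlap broadly.

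For the drug target, a summit lay near a start of Slc5a2 (chr7:128265657-128272430) in 1 Case mouse, 4 Dapa mice and 4 of 5 Ctrl mice. The percentile was 17.3 in Case 5, and 70.5, 19.4, 7.78 and 13.8 in Dapa 9 to 12. All but Dapa 9 were weak summits near the end of the lists. Slc5a1, the cotransporter further down the tubule, had a promoter summit in 1 Case, 2 Dapa and 3 Ctrl mice. Slc2a2, the basolateral carrier, had one in 4 Case mice at 33.0 to 73.7, in all 6 Dapa mice at 48.8 to 74.6 and in all 5 Ctrl mice.

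The list of 12 glucose-handling genes, which holds these transporters, gluconeogenic enzymes and transcription factors, had promoter summits at 75.0, 75.0, 58.3, 75.0, 91.7 and 75.0% of its genes in Case 1 to 6. Dapa 7 to 12 had 83.3, 75.0, 83.3, 91.7, 91.7 and 91.7%. The means were 75.0 ± 10.5% in Case, 86.1 ± 6.80% in Dapa and 86.7 ± 4.56% in Ctrl (SD), and the groups overlapped. Among its genes, 5 were found in more Dapa than Case mice, 1 in fewer and 6 in equal numbers, and over all 14229 protein-coding genes with a promoter summit 22.7% were found in more Dapa mice and 18.7% in fewer. With the 14851 strongest summits of each list the difference was 0.

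G6pc, the glucose-releasing phosphatase, had a promoter summit in 4 Case and 6 Dapa mice. The members with a summit in all 12 mice could be ranked. Pck1, the entry enzyme of gluconeogenesis, had means of 77.6 in Case and 81.0 in Dapa (3.44 ± 6.68 points, SE). Hnf4a, the nuclear receptor of tubule identity, had 70.8 and 78.3 (7.50 ± 5.06 points). Slc2a1, the carrier GLUT1, had 80.4 and 63.8 (-16.5 ± 12.9 points). Its Case values ran from 65.2 to 93.8 and its Dapa values from 13.8 to 93.0, with Dapa 7 and Dapa 12 under all Case mice. Fbp1 and Pdzk1ip1, the SGLT2 partner MAP17, differed by 1.37 ± 5.28 and 4.86 ± 6.30 points. None of the 5 had an unadjusted p under 0.05 in limma. An inner promoter of Hnf4a (chr2:163549593-163550223) was present in 3 Case, 6 Dapa and 4 Ctrl mice.

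Over the 9 lists of nephron segment genes, 78 of 105 genes had a promoter summit in any of the 12 mice and 22 in all. The share of the 105 was 41.9, 37.1, 40, 50.5, 48.6 and 42.9% in Case 1 to 6 and 45.7, 41.9, 39.0, 43.8, 45.7 and 41.0% in Dapa 7 to 12, and the groups overlapped. Means were 43.5 ± 5.10% and 42.9 ± 2.69% (SD), while all protein-coding genes had 47.8 ± 1.61% and 48.5 ± 1.68%. None of the 22 ranked promoters had an unadjusted p under 0.05 in either direction, where 1.9% and 2.19% of all genes did. Of 48 regions in or within 2 kb upstream of these genes that were tested for presence, 1 was higher and 0 lower, against 0.936% and 0.234% of all regions. That 1 was an intron of Slc14a2, the urea transporter of the thin limb and collecting duct, present in 5 Dapa and 0 Case mice and in 4 of 5 Ctrl mice.

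By segment, the early proximal tubule list (24 genes) was the most complete, at 79.2 ± 12.4% in Case and 83.3 ± 7.45% in Dapa, and the means were equal without Case 3. Its endocytic receptors Lrp2 (megalin) and Cubn (cubilin) had promoter summits in 6 and 5 Case mice and in 6 Dapa mice each, and the phosphate carrier Slc34a1 in 6 and 5. For Lrp2, Dapa 8 at 21.5 and Dapa 10 at 47.4 lay under all Case values of 68.7 to 86.0, and the other 4 Dapa mice had 76.1 to 94.8. The late proximal list (8 genes) had 25.0 ± 7.91% and 29.2 ± 6.45%, in which the anion carrier Slc22a7 was present in 0 Case, 3 Dapa and 2 Ctrl mice. The organic anion transporter Slc22a6 was present in 4 Case, 3 Dapa and 5 Ctrl mice. Single regions of these genes went both ways: a promoter of the amino acid transporter subunit Slc7a7 was present in 4 Case and 1 Dapa mice and a region upstream of Slc2a2 in 3 and 0, while introns of the sodium-proton exchanger Slc9a3 and the dicarboxylate carrier Slc13a3 were present in 0 and 3 each. For Pdzk1ip1, a promoter region was present in 4 Case and 1 Dapa mice and an exonic one in 2 and 5.

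Beyond the proximal tubule, the thick ascending limb list (13 genes) had 15.4, 7.69, 30.8, 53.8, 23.1 and 46.2% in Case 1 to 6 and 23.1, 30.8, 7.69, 38.5, 23.1 and 7.69% in Dapa 7 to 12. The spread within each group was larger than the difference of means (29.5 ± 17.8% and 21.8 ± 12.3%). Umod, the uromodulin gene, was present in 4 Case, 2 Dapa and 2 Ctrl mice, and Bsnd, a chloride channel subunit, in 3 Case mice at 9.88 to 31.5 and in no Dapa or Ctrl mouse. An intron of Cldn10, a tight junction protein of this segment (chr14:118801843-118802826), was present in 5 Case, 1 Dapa and 1 Ctrl mice (Fisher's exact test, p = 0.0801, adjusted p = 1).

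The distal convoluted tubule list (8 genes) had 52.1 ± 9.41% in Case and 43.8 ± 6.85% in Dapa, a difference that was 2.08 points the other way with the 14851 strongest summits of each list. Its marker Slc12a3, the thiazide-sensitive cotransporter, was present in all 12 mice and differed by -2.10 ± 12.7 points (SE, limma, unadjusted p = 0.872). The connecting tubule list had 22.2 ± 8.61% and 27.8 ± 13.6%, principal cells 41.0 ± 6.28% and 38.5 ± 4.87%, and intercalated cells 8.33 ± 10.5% and 11.1 ± 6.80%. Scnn1g, a subunit of the sodium channel ENaC, was present in 5 Case, 6 Dapa and 5 Ctrl mice, Calb1, the calcium buffer calbindin, in 0, 1 and 2, and Slc26a4, the exchanger pendrin, in 1, 2 and 0. Introns of the transcription factors Gata3 and Tfcp2l1 were present in 3 Case and 0 Dapa mice each, an intron of the sodium-calcium exchanger Slc8a1 in 1 and 4, and a promoter of the ephrin receptor Epha7, of the thin limb list, in 5 and 2. The thin limb list had 52.4 ± 11.7% and 50.0 ± 12.0%. An intron of Atp6v0d2, a proton pump subunit of intercalated cells (chr4:19901051-19901557), was present in 0 Case, 4 Dapa and 4 Ctrl mice (Fisher's exact test, p = 0.0606, not among the regions adjusted).

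In the podocyte list (14 genes), the shares were 38.1 ± 7.38% and 34.5 ± 7.02%. Nphs1, which encodes nephrin of the slit diaphragm, had a promoter summit in Case 1 (48.3), Case 3 (0.877) and Case 5 (35.0) and in no Dapa or Ctrl mouse, and Wt1 in 1 Case, 0 Dapa and 1 Ctrl mice. Podxl, the podocyte sialomucin, and Plce1, a phospholipase of podocyte development, were present in 0 Case, 1 Dapa and 1 Ctrl mice each. Over the list, 2 genes were present in more Dapa mice, 3 in fewer and 9 in equal numbers. Regions of Magi2, a scaffold of the slit diaphragm, went both ways: 1 intron was present in 3 Case and 0 Dapa mice, another in 0 and 3, and an inner promoter in 3 and 6. Defining promoters of several segments were at 0 of the 12 mice, among them Slc12a1, Aqp2, Atp6v1g3 and Slc4a1.

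Genes found in at least 3 mice more of 1 group numbered 4 of the 78 segment genes found in any mouse (Slc5a2, Slc22a7, Nphs1 and Bsnd), and 479 of 14229 among all protein-coding genes (3.37%, of which 305 in more Dapa mice and 174 in fewer). Outside the segments, the injury list (8 genes) had 25.0 ± 11.2% and 29.2 ± 10.2%, in which Cdkn1a, the cell cycle inhibitor p21, was present in 2 Case, 5 Dapa and 3 Ctrl mice and the promoter of Havcr1 (KIM-1) in none. Endothelial genes had 9.72 ± 6.27% and 9.72 ± 3.40%, and stromal genes 8.33 ± 9.83% and 8.33 ± 4.08%. Leukocyte genes had 5.26, 5.26, 42.1, 5.26, 10.5 and 0% in Case 1 to 6 and 10.5, 26.3, 5.26, 10.5, 5.26 and 0% in Dapa 7 to 12, against 1.05 ± 2.35% in Ctrl. Of its 19 genes, 4 were present in more Dapa mice (Cd3e, Lyz2, Laptm5 and Coro1a, by 1 mouse each), 4 in fewer (Csf1r, Fcer1g and Spi1 by 1 mouse each, and Cd74) and 11 in equal numbers. The promoter of Cd74, the invariant chain of antigen presentation, was present in 4 Case mice at 59.5 to 86.7, in 1 Dapa mouse at 35.0 and in no Ctrl mouse.

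**Figure D4:**
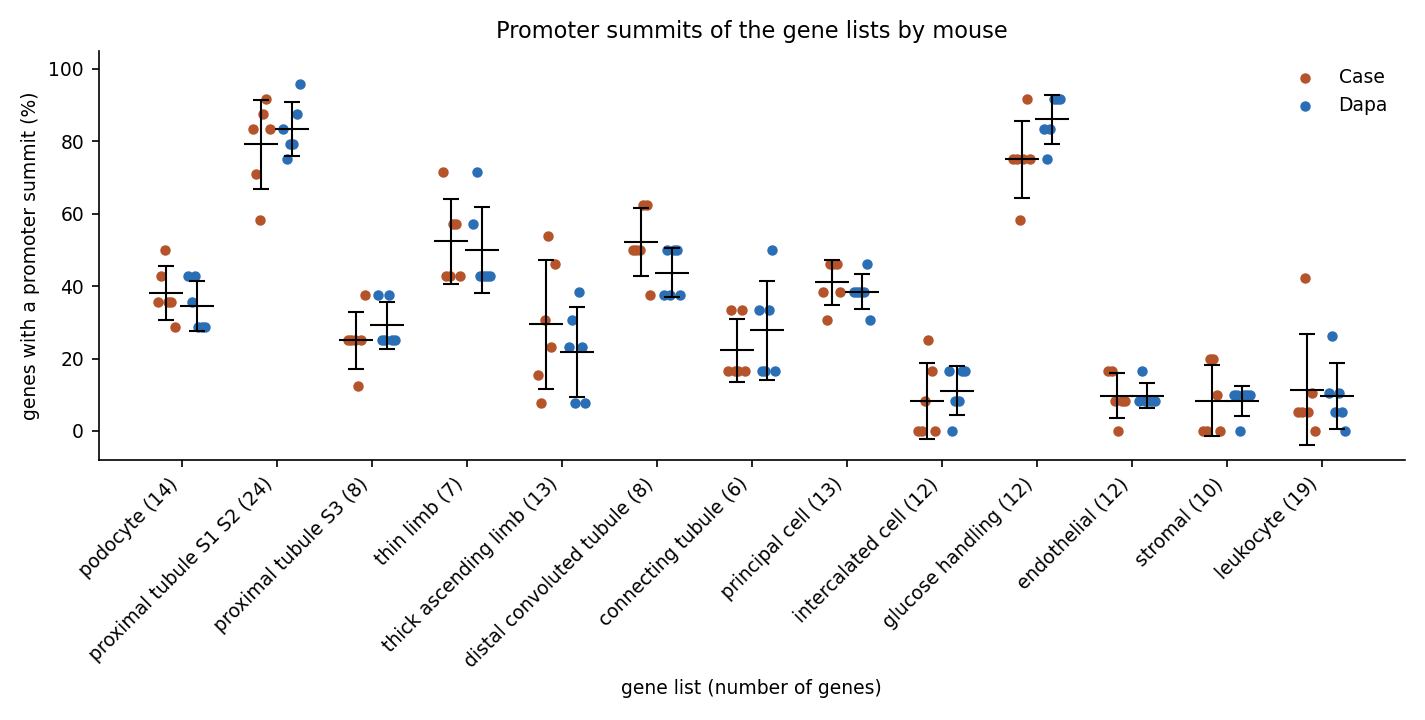
Share of the genes of each list (%, number of genes in brackets) that had a promoter summit (1 kb or less from a start), for 6 Case and 6 Dapa mice. Points are mice, and bars are means with SD. All lists overlap between the groups, the proximal tubule S1 S2 and glucose-handling lists lie highest, and the single high leukocyte values are Case 3 (42.1%) and Dapa 8 (26.3%).

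Sequence had no part in choosing the regions. The 15 motifs were AP-1, NRF1, E-box, ISRE, NFY and SP/KLF, with the letters given with the sequences, and 9 others, of which 8 are reported here. These were HNF4 (CAAAGTCCA), CRE (TGACGTCA), ETS (CCGGAAGT), DR1 (AGGTCANAG), ERR (TCAAGGTCA), STAT (TTCCNGGAA) and FOX (TGTTTAC). The last was the motif of GATA factors, written AGATAAG. All 15 were searched on both strands within 100 bp of each summit, and DR1 and ERR share the letters AGGTCA. Of 32 values per mouse, motifs and GC content at promoters and elsewhere, none passed the adjustment. NFY at promoters had the smallest p, at 30.6 ± 0.502% of promoter summits in Case and 31.2 ± 0.301% in Dapa (SD, n = 6 each, exact permutation test, 2-sided, p = 0.0346, adjusted p = 0.706), with 4 Dapa mice above all Case mice. With scores of at least 5 the difference turned to -0.337 points.

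Outside promoters, the HNF4 motif, that of a factor of proximal tubule enhancers, was found at 2.46, 1.36, 0.560, 1.51, 2.79 and 2.25% of summits in Case 1 to 6 and at 2.58, 1.65, 1.84, 2.03, 3.03 and 2.53% in Dapa 7 to 12. Case 3 was lowest and the groups overlapped (1.82 ± 0.829% and 2.28 ± 0.525%, SD, exact permutation test, p = 0.290). AP-1, a motif bound by stress and immune factors among others, was highest in Case 3 (9.31%) and Dapa 8 (9.15%), the mice with the most leukocyte promoters (means 7.57 ± 1.25% and 8.09 ± 0.745%), and the difference of its means turned to -0.136 points with scores of at least 5. Adjusted p-values were 0.706 for both.

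Telomere hexamers (TTAGGG) were counted after they were seen in a region present less often in Dapa, so the counts are a description. At least 4 copies within the 201 bases were held by 200 of the 104155 regions (0.192%), by 31 of the 7267 tested for presence (0.427%), by 2 of the 17 regions present less often in Dapa and by 0 of the 68 present more often. One of the 2 lay nearest Gpr12 (chr5:146666361-146666965), held 13 copies and was present in 6 Case mice and 1 Dapa mouse, and the other was the region nearest Slc24a3. Of the 31, 24 were present in more Case mice, 5 in more Dapa mice and 2 in equal numbers, at a mean presence of 63.4% of Case and 33.9% of Dapa mice, while all tested regions had 46.4% and 52.3%. These regions share their 12 libraries and their repeat, and are not independent.

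A further 81 hexamer regions were present in all 12 mice, and 75 of them (92.6%) ranked lower in Dapa on average and 6 higher, while 50.4% of all 8166 shared regions ranked lower. The median difference was small, at -0.60 points, and the regions ranked near the top (median of the mean percentiles 98.2 in Case and 97.1 in Dapa). The 81 regions share their 12 libraries and are not independent. Over all hexamer summits of a mouse, the median percentile was 86.7, 95.2, 91.8, 95.8, 81.1 and 88.9 in Case 1 to 6. It was 91.3, 87.0, 92.8, 92.1, 89.6 and 87.8 in Dapa 7 to 12, so these values were not lower in Dapa throughout. Per mouse, hexamer summits numbered 145, 151, 161, 171, 129 and 121 in Case 1 to 6, 125, 163, 141, 97, 119 and 112 in Dapa 7 to 12, and 127 to 142 in Ctrl. The groups overlapped, at 146 ± 18.9 and 126 ± 23.2 (SD). The share of all summits that lay in mostly repeat-masked windows was 6.15% to 21.4% in Case and 6.72% to 17.5% in Dapa. In Case, mice 2 to 4 had the most hexamer summits and also the highest masked shares, at 21.4, 18.0 and 17.7%. In Dapa, hexamer summits were most in mouse 8 and the masked share was highest in mouse 9. Whether hexamer summits and masked share are related was not tested.

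**Figure D5:**
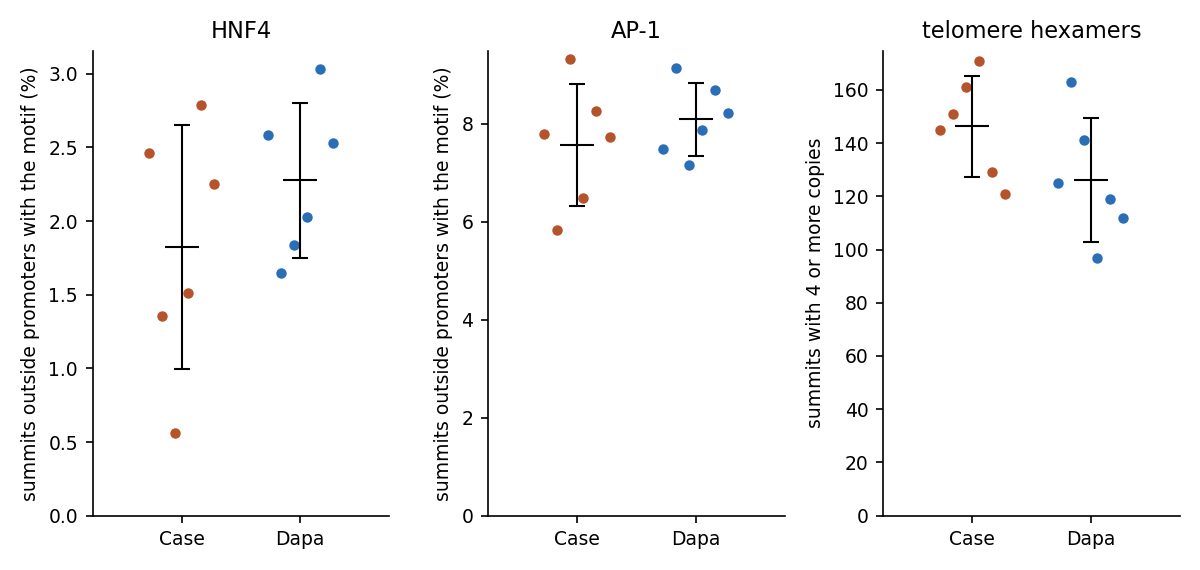
The first 2 panels give the share of summits outside promoters (%) with the HNF4 or AP-1 motif within 100 bp, and the last the number of summits with at least 4 telomere hexamers, for 6 Case (orange) and 6 Dapa (blue) mice. Points are mice, and bars are means with SD. The groups overlap in every panel, and Case 3 is the lowest point for HNF4 and the highest for AP-1.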

How the data were processed

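ATAC-seq was made from kidney cells of 17 mice. The authors ran the ENCODE ATAC-seq pipeline: reads were aligned to mm10 with Bowtie2, and duplicates and blacklisted reads were removed. Reads were then shifted for the transposase, and peaks were called with MACS2. Versions are not given in the sources used here. The deposited summit lists carry a −log10 score, and whether it is that of a p-value or a q-value is not stated.

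The 29702 highest-scoring summits per list were ranked (tied scores shared their mean rank) and merged after widening by 250 bp. Genes came from GENCODE M21. Presence was tested with Fisher's exact test over the regions in 5 to 7 libraries, ranks with limma 3.58.1 in R 4.3.3, and values per mouse with exact permutation tests over 924 relabellings (smallest p 0.00216). All tests were 2-sided with Benjamini-Hochberg adjustment within a family, at 0.05, and were tested on simulated data. Python 3.11.15, scipy 1.17.1 and pandas 2.3.3 were used. Replicates are mice, and the labels name no batch. Read depth is unknown, so no counting interval is given, and the number of mice sets the precision.

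Members, gene lists and motifs were chosen with earlier results of these data known. Named were, for presence, the first 8 regions in each direction by p, then difference in presence, mean rank and position. For ranks, they were the first 5 regions and the first 5 gene promoters in each direction by p, and further gene promoters of small p. Genes that share a summit or tie were named together where they matter. Also named were set segment genes and any listed gene that differed by at least 3 mice. Alternatives were list length, a score of at least 5, widening by 100 or 500 bp, promoter distances of 500 bp or 3 kb, autosomes only, another scale or spread in limma, absence as 0, motif windows of 50 or 200 bp and each mouse left out. Leaving out Case 3 and Dapa 8 together was added after seeing the data. Some listed genes, a motif and a sequence are not reported here.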

Additional observations from a re-analysis of the deposited data

Results flagged for a closer look

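Of 86 groups of 6 mice examined for 1 mouse far from the others, 5 held one. Chance flags about 1 in 20 groups, which gives 4.3. The median rank percentile of intergenic summits was 33.2 in Case 2 and 38.4 to 39.2 in the other Case mice. Promoters made up 86.6% of the strongest 10% of summits in Dapa 8 and 75.2% to 79.2% in the other Dapa mice. Endothelial genes had promoter summits at 16.7% of the list in Dapa 8 and at 8.33% in each of the others, and stromal genes at 0% in Dapa 9 and 10% in each of the others, a difference of 1 gene in both lists. Leukocyte genes had promoter summits at 42.1% of the list in Case 3 and at 0% to 10.5% in the other Case mice.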

How the results depend on the processing

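No region passed the adjusted presence test under any setting. The number at an unadjusted p under 0.05 was 85, 52 with the 14851 strongest summits of each list, 45 with scores of at least 5, 306 without Case 3 and Dapa 8, and 139 (without Dapa 11) to 270 (without Case 5) with 1 mouse left out, where more regions could be tested. Of the 85, 80% were present more often in Dapa, and this share was 59.0% without Case 2, 60.1% without Case 3, 65.3% without Case 4, 61.8% without both Case 3 and Dapa 8, and 86.4% without Dapa 10. With 1 mouse left out, the groups were unequal in size and the test did not treat both directions alike. For region ranks, 347 had an unadjusted p under 0.05, 205 with the shorter lists, 1533 with absence as 0 and 548 without Case 3 and Dapa 8, and the number past the adjustment was 1 without Case 3 and Dapa 8 (Stag1) and 0 to 1 with 1 mouse left out, the 1 being Stag1 without Dapa 8. With absence as 0 it was also 1 (Proser2), but that region met the minimum of 4 mice only through Dapa and 4 of its Case values were set to 0, so that this pass is no support for a difference. For gene promoters, 338 became 222 with the shorter lists and 224 with scores of at least 5, and 0 to 1 passed with 1 mouse left out (Stag1 without Dapa 8).

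Class differences (Dapa minus Case) changed sign under several settings. With all summits they were -1.68 points for promoters, 0.0665 for exons and 0.279 for intergenic DNA. The shorter lists gave -0.0191 for promoters, 0.0483 for exons, 0.366 for the intergenic median and 0.867 for the promoter share of the strongest 10% of summits. Scores of at least 5 gave -2.57, 0.188 and 0.639 for promoter, exon and intergenic shares, 0.149 and 1.87 for the promoter and intergenic medians, 0.862 for the strongest 10%, -0.337 for NFY at promoters and -0.136 for AP-1 elsewhere. The share in regions of all mice was 0.000561 with 100 bp. With 1 mouse left out, the strongest 10% ran from -2.14 (without Dapa 8) to 0.141 (without Dapa 12), the intergenic median from -3.44 to -1.91, and 0 to 1 measures passed (the intergenic median without Case 2). The causes were not tested. In all, 350 values of the main results and 377 other values stayed as reported by direction, threshold or size, while 25 and 7 moved, 16 and 2 changed sign, and the intergenic median passed without Case 2. The counts of 1 past the adjustment given above (Stag1, Proser2) are among those that moved. The adjustment did not cover the choice of mice left out, so the passes of Stag1 and of the intergenic median are no support for a difference. No paired analysis was possible because Case mice were numbered 1 to 6 and Dapa mice 7 to 12. The unknown depth, tied scores and 6 mice a group limit what could be detected.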
